A study of Mus musculus with 18 samples.

Results

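The genes described here encode the respiratory chain proteins that are made from nuclear DNA, the subunits of complexes I to IV and of ATP synthase, which is counted as complex V. Members were chosen by gene symbol alone: Nduf genes with a letter a, b, c, s or v and a number, Sdha to Sdhd, the Uqcr genes, Cox4 to Cox8 genes, and the Atp5 genes, without the Ndufaf assembly factors and without symbols marked as pseudogenes. Of the 21003 genes in the table, 86 had such a symbol, and 79 of them reached at least 10 counts in at least 3 libraries and are the members. They are 37 genes of complex I, 4 of complex II, 8 of complex III, 13 of complex IV and 17 of complex V. The 7 symbols that were not kept are Ndufa4l2, Ndufb11b, Cox6a2, Cox7a1, Cox7b2, Cox8b and Cox8c. Ndufa4 is counted with complex I by its name, although its protein is now known as a subunit of complex IV. Ndufb4c is annotated as a processed pseudogene, and reads of Ndufb4 and Ndufb4c may be split between the pair by the counting, so the values of both are uncertain.

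The respiratory chain sits in the inner mitochondrial membrane. Complexes I and II pass electrons from NADH and succinate to ubiquinone, complex III passes them on to cytochrome c, and complex IV passes them to oxygen. Complexes I, III and IV pump protons across the membrane, and ATP synthase uses the return flow of protons to make ATP. A few subunits of complexes I, III, IV and V are encoded by mitochondrial DNA and are not among the members. The long-term stem cells of blood, or LT-HSCs, can rebuild blood for life. They are known for low mitochondrial activity at rest, which rises when they divide and differentiate.

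The series measured RNA in pools of 100 sorted LT-HSCs from the bone marrow of 6 wild-type mice aged 8 to 12 weeks, given as B6.SJL in the growth protocol and as C57 B6 wild type in the genotype field. Each mouse gave 3 libraries: a fresh one (labelled pH 7.4, not cultured), one after 48 h of culture at pH 7.4, and one after 48 h at pH 6.9. Both culture media were IMDM with 10% fetal bovine serum plus mSCF, GCSF and mTPO (each a blood cell cytokine, 50 ng/ml), with cells kept at 37 °C under 5% CO2 and 3% O2. The labels name no transgene, deletion or drug in any group. Replicate numbers are mouse numbers, and a pool of cells from 1 mouse gives no measure of the spread between cells. Because RNA was pooled over cells, fewer expressing cells and less RNA per cell cannot be told apart.

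A number at the start of each library's title splits every group by mouse: 701 for odd-numbered and 702 for even-numbered mice in the fresh group, 707 and 708 at pH 7.4, and 705 and 706 at pH 6.9. The labels do not say what that number is, and it is called the first index below. Within the odd or even mice every pH group has its own first index, so pH and first index cannot be told apart there. Libraries held between 1640817 and 7508120 counts, except fresh replicate 1 with 6311. Fresh replicate 1 and 2 libraries with fewer than 10000 detected genes (fresh replicate 4 and pH 6.9 replicate 3) were left out of the fit of the 6 sets of group and first index, which holds 15 libraries; all 18 entered the comparisons over all mice. Among the 15, all 10 LT-HSC markers were detected in every set, with a summed level of 392 to 1624 CPM (counts per 1000000 of the normalized library total), lowest at pH 7.4 in even mice (392 to 644). The summed level of 6 granulocyte progenitor markers was 1754 to 5107 CPM at pH 7.4 in even mice, 44.8 to 74.3 at pH 7.4 in odd mice, 166 in both odd mice at pH 6.9 and 34.1 to 49.9 in even mice at pH 6.9. In fresh odd mice it ran from 76.3 to 5516, and in fresh even mice from 117 to 271. Over the sets, monocyte and macrophage markers summed to 137 to 445 CPM, megakaryocyte markers to 41.1 to 943, and erythroid markers (5 of 6 in the table) to 0.571 to 202. B cell markers summed to 20.6 to 77.2, T and NK cell markers to 5.99 to 133, and stroma and endothelium markers to at most 0.638.

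Gene positions below are from GENCODE M21 on GRCm38, and log2 fold changes come from the 15-library edgeR fit unless all mice are named. Values of a set are given in order of mouse number: mice 1, 3 and 5 for odd and mice 2, 4 and 6 for even, without mouse 1 in fresh odd, mouse 4 in fresh even and mouse 3 in odd pH 6.9 libraries.

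Before the values, 4 stretches of promoter sequence are shown to give the letters behind the motif counts. Per complex the member was taken that had the smallest p in the even minus odd difference of the pH effect (below) among those with a match inside a stretch of 100 bases free of annotated exons. Promoters are the RefSeq sequences 250 bases before the gene starts in the GRCm38.p6 build, all on the minus strand here, and the capitals mark the matches to the ETS (GABPA) letters CCGGAAG or the NRF1 letters GCGCATGC on either strand. Sdhb and Sdhd of complex II and Atp5g2 and Atp5k of complex V also hold a match, but it overlaps an annotated exon or has no exon-free stretch of that length around it, so they are not shown. The windows are chr4:40279572-40279671, minus strand, 250 to 151 bases before the start (Ndufb6), chr10:80406835-80406934, minus strand, 113 to 14 bases before the start (Uqcr11), chr5:115349030-115349129, minus strand, 171 to 72 bases before the start (Cox6a1) and chr9:44920893-44920992, minus strand, 250 to 151 bases before the start (Atp5l).
Ndufb6: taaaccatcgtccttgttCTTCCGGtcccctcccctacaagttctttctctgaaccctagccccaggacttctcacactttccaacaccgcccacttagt
Uqcr11: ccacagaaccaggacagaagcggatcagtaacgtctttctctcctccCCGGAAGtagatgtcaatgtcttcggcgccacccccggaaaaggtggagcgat
Cox6a1: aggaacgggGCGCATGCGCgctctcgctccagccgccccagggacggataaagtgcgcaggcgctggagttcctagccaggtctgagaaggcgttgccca
Atp5l: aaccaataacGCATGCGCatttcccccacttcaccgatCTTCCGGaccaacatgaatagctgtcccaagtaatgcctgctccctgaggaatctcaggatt
The Cox6a1 window holds NRF1 matches on both strands that overlap, and the Atp5l window holds an NRF1 and an ETS match. NRF1 and GABPA are nuclear factors that activate respiratory genes.

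RefSeq promoters were found for 65 of the 79 members. The NRF1 letters were in the promoters of 8 members, 12.3%, against 5.42% of the 8665 tested genes with a promoter. These 8 were Atp5g2, Atp5k, Atp5l, Cox6a1, Ndufa11, Ndufa6, Ndufa8 and Sdhb. The ETS letters were in 12 members, 18.5%, against 1507 of the 8665 genes. The YY1 letters AAGATGGC were in 1 member (1.54% against 2.54%), the SP1 letters GGGCGGG in 20 (30.8% against 48.7%) and the E-box CACGTG in 6 (9.23% against 10.1%). A match is a description of these letters and not a bound site.

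Levels of members were compared per kilobase of transcript, as the mean CPM per kb over the 15 libraries. The highest was Atp5b, the catalytic beta subunit of ATP synthase, at 1005, followed by Ndufa4 at 943, Atp5g1, a gene for the membrane ring subunit, at 857, and Cox4i1, the common form of a regulatory complex IV subunit, at 824. The median over the members was 289 CPM per kb, and by complex it was 238 in I, 208 in II, 385 in III, 499 in IV and 465 in V. The lowest member of complex I was Ndufv3, a small accessory subunit, at 58.6. In complex II the range ran from Sdhc, a membrane anchor, at 68.1 to Sdhd, the other anchor, at 423. In complex III it ran from Uqcrc2, a core protein, at 137 to Uqcrq, a small subunit, at 629. In complex V the lowest was Atp5g2, which makes the same ring protein as Atp5g1, at 149.

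Forms of subunits that are used in particular tissues were low or absent. Cox4i2, the complex IV subunit form best known from lung and low oxygen, was at 24.9 CPM per kb against 824 for Cox4i1, and Cox6b2, the testis form, was at 16.7 against 585 for Cox6b1. Cox7b2, Cox8b, Cox8c and Ndufa4l2 had no count in any library. Ndufb11b, which was not found in the annotation and is not counted as a tissue form here, also had none. Cox6a2, a muscle form, had at most 7 counts in a library, and Cox7a1, another muscle form, had at most 21.

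**Figure D1:**
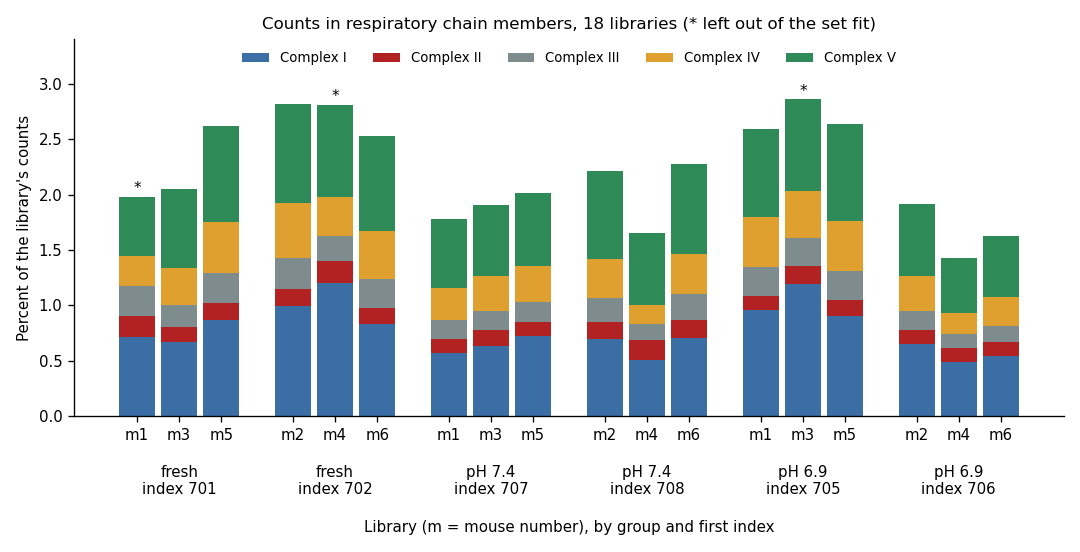
Percent of each library's counts in members (y axis), stacked by complex, for the 18 libraries ordered by group and first index (x axis). Asterisks mark the 3 libraries left out of the fit of 6 sets, and the pH 6.9 libraries of even mice sit below those of odd mice.

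Members took 2.62 ± 0.0283% (SD, n = 2) of the counts at pH 6.9 in odd mice and 1.66 ± 0.247% (SD, n = 3) in even mice. At pH 7.4 the shares were 1.90 ± 0.118% (SD, n = 3) and 2.05 ± 0.346% (SD, n = 3), and in the fresh libraries 2.33 ± 0.401% (SD, n = 2) and 2.67 ± 0.202% (SD, n = 2). The low value of even mice at pH 6.9 lies below both fresh sets. Among the 15 libraries the lowest fresh one had 2.05%, and the left-out fresh replicate 1 had 1.98%. At pH 7.4, replicates 1, 3 and 4 had 1.78%, 1.91% and 1.65%, within the 1.43% to 1.92% of even mice at pH 6.9.

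The question the design asks is how culture at pH 6.9 differs from culture at pH 7.4. Over all mice no member passed the test: edgeR's quasi-likelihood test called 0 members at an adjusted p under 0.05, against 0% of the 10104 genes tested. At an unadjusted p under 0.05 there was 1 member (Cox4i2) and 254 genes, and DESeq2 called 0 members and 4 genes. The log2 fold change of pH 6.9 over pH 7.4 was positive for 73 of 79 members, with a median of 0.44 against -0.01 over all genes. Without pH 6.9 replicate 3 that median was 0.18 (63 positive), and in the 15 libraries it was 0.16 (61 positive). Against the fresh cells, pH 7.4 gave a median of -0.66 (4 members positive) against 0.08 over all genes, with 0 calls and 0% of genes called. An unadjusted p under 0.05 was reached by 10 members and 381 genes, and without fresh replicate 4 the median was -0.42. pH 6.9 gave a median of -0.19 (6 members positive, 0 at an unadjusted p under 0.05), again with 0 calls and 0% of genes called. That direction rests on single libraries: the median was 0.0024 (40 positive) without fresh replicate 4, -0.060 and -0.075 without pH 6.9 replicates 4 and 6, and -0.51 without pH 6.9 replicate 3. DESeq2 called 0 members in both. In a simulation of this fit, 31.8% of genes changed 4-fold and 0% of those changed 2-fold were recovered.

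With mice split by first index, pH 6.9 and pH 7.4 differed in opposite directions. In odd mice 13 members were higher and 1 lower at pH 6.9 (edgeR, adjusted p under 0.05), against 5.07% and 6.01% of the 10659 genes tested; the median log2 fold change was 0.63 against -0.08 over all genes, and 75 of 79 were positive. In even mice 0 were higher and 7 lower, against 2.67% and 4.07% of genes; the median was -0.36 against 0.04, and 72 were negative. The difference itself, the even effect minus the odd effect, passed as negative for 23 members and as positive for 0, against 9.09% and 8.96% of genes; by sign alone it was negative for 77 and positive for 2, with a median of -0.96 against 0.14. All libraries at pH 6.9 lay above all at pH 7.4 in odd mice for 64 members (81.0%, and 19.1% of all genes), and all lay below in even mice for 22 (27.8%, and 16.4% of genes). The 3 comparisons share libraries, so their directions are not independent of one another.

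Single libraries moved these counts, and of the 14, 7 and 23 calls, 0, 0 and 9 were kept in each leave-one-out fit. In odd mice the count was 1 without pH 6.9 replicate 1, 2 without replicate 5, 0 without pH 7.4 replicate 1 and 8 without replicate 3. In even mice it was 2 without pH 6.9 replicate 4, 0 without replicate 6 and 0 without pH 7.4 replicate 6. For the difference it was 11 without pH 6.9 replicate 5, 13 without replicate 6, 14 without pH 7.4 replicate 1, 50 without replicate 4 and 13 without replicate 6. The median in even mice was -0.15 when pH 6.9 replicate 4 was left out, and -0.19, -0.55 and -0.12 when replicates 2, 4 and 6 at pH 7.4 were. With all 18 libraries in the fit, 0 members were called in each of the 3. The 9 members kept in every such fit of the difference were Atp5c1, Atp5g1, Atp5g3, Atp5o, Ndufa12, Ndufb6, Ndufv2, Sdhb and Uqcrfs1. The granulocyte progenitor markers given above moved with the first index at pH 7.4, and their part in these differences was not tested.

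The 3 libraries of a mouse are paired, and with the mouse as a block edgeR called 12 members in odd mice, 8 in even mice and 28 in the difference. Calls over all genes were not counted with the block. Of the 14, 7 and 23 calls made without the block, 6, 7 and 19 passed with it. The 8 lost in odd mice were Atp5c1, Atp5g3, Atp5o, Ndufb9, Ndufv2, Sdha, Sdhb and Uqcrfs1 (adjusted p = 0.055 to 0.0827 with the block), and the 12 called were all higher at pH 6.9. In the difference, Ndufb5, Ndufb8, Ndufs3 and Uqcrc2 were lost (adjusted p = 0.0605 to 0.0755).

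**Figure D2:**
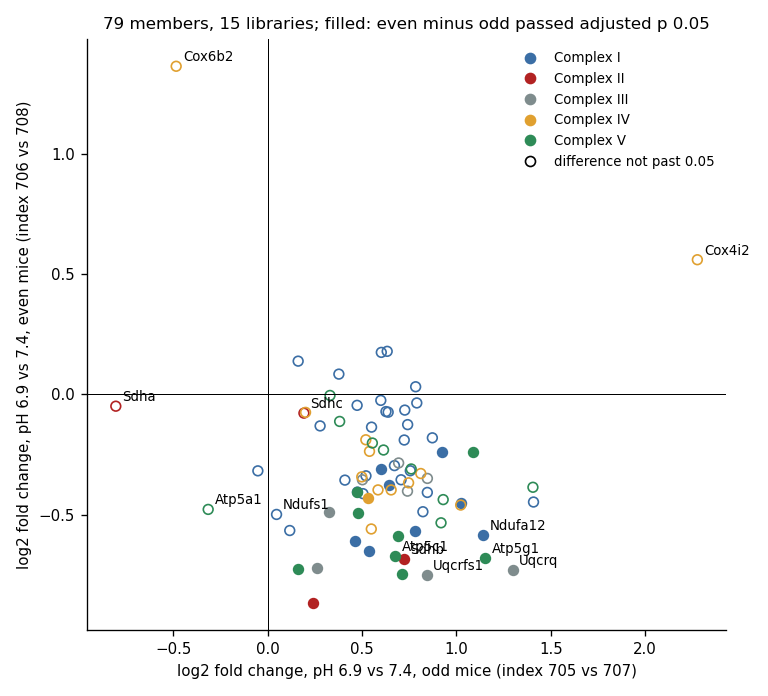
log2 fold change of pH 6.9 over pH 7.4 for each of the 79 members in odd mice (x axis) and even mice (y axis), from the 15-library edgeR fit, coloured by complex, with filled points where the even minus odd difference passed an adjusted p of 0.05. Most members lie to the right of 0 and below it, and Sdha lies to the left.

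The same split was read within each group, where no pH differs but the mice and the first index do. At pH 6.9, even mice had 32 members lower and 1 higher than odd mice, against 7.36% and 7.02% of genes, with a median of -0.93 against 0.08 over all genes. At pH 7.4 there was 1 member higher (Uqcrfs1) and 0 lower, against 1.66% and 1.67% of genes, with a median of 0.06. That median was -0.094, -0.16 and -0.12 without pH 7.4 replicates 1, 2 and 6, and 0.23 without replicate 4. Without each of replicates 1, 2, 3, 4 and 6 at pH 7.4 that count was 0, and without replicate 5 it was 4. In the fresh cells 0 members were called, against 0.0563% of genes. There 2 members and 816 genes had an unadjusted p under 0.05, and DESeq2 called 0 members. The fresh median was still 0.31, with 72 of 79 members positive, against -0.03 over all genes. That fresh median was 0.17, 0.055, 0.62 and 0.41 without fresh replicates 2, 3, 5 and 6. With the length trend described below it was 0.097. At pH 6.9, 70 members were lower in every even library than in every odd library (88.6%, and 21.5% of genes), and without pH 6.9 replicates 1, 4, 5 and 6 the count of calls was 8, 14, 10 and 9. The 5 members Atp5g1, Atp5o, Ndufa12, Ndufb6 and Sdhb were kept in every leave-one-out fit.

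Against fresh cells, even mice at pH 6.9 had 27 members lower and 0 higher, against 6.15% and 4.77% of genes, with a median of -0.94 against 0.06 over all genes. This count was 4 without fresh replicate 2, 9 without fresh replicate 6, 10 without pH 6.9 replicate 4, and 6 without replicate 6. With the mouse as a block it was 29, of which 19 were among the 27. In odd mice at pH 6.9, 0 members were called against 0.6% of genes, with a median of 0.25. There 6 members and 1447 genes had an unadjusted p under 0.05, and DESeq2 called 1 member and 264 genes. Without fresh replicate 3 the median of 0.25 became -0.018 (38 positive), without fresh replicate 5 it was 0.56, and with the length trend described below it was -0.00081. At pH 7.4, 0 members were called by edgeR or DESeq2 in odd mice, against 0.113% of genes by edgeR, and 0 in even mice, against 0.103%. An unadjusted p under 0.05 was reached by 5 members and 1122 of the 10659 genes in odd mice. In even mice it was reached by 36 members and 1317 genes. The medians were -0.32 in odd mice (-0.045 without fresh replicate 5 and -0.57 without fresh replicate 3) and -0.69 in even mice (-0.42 without pH 7.4 replicate 4). These comparisons share their fresh or pH libraries.

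**Figure D3:**
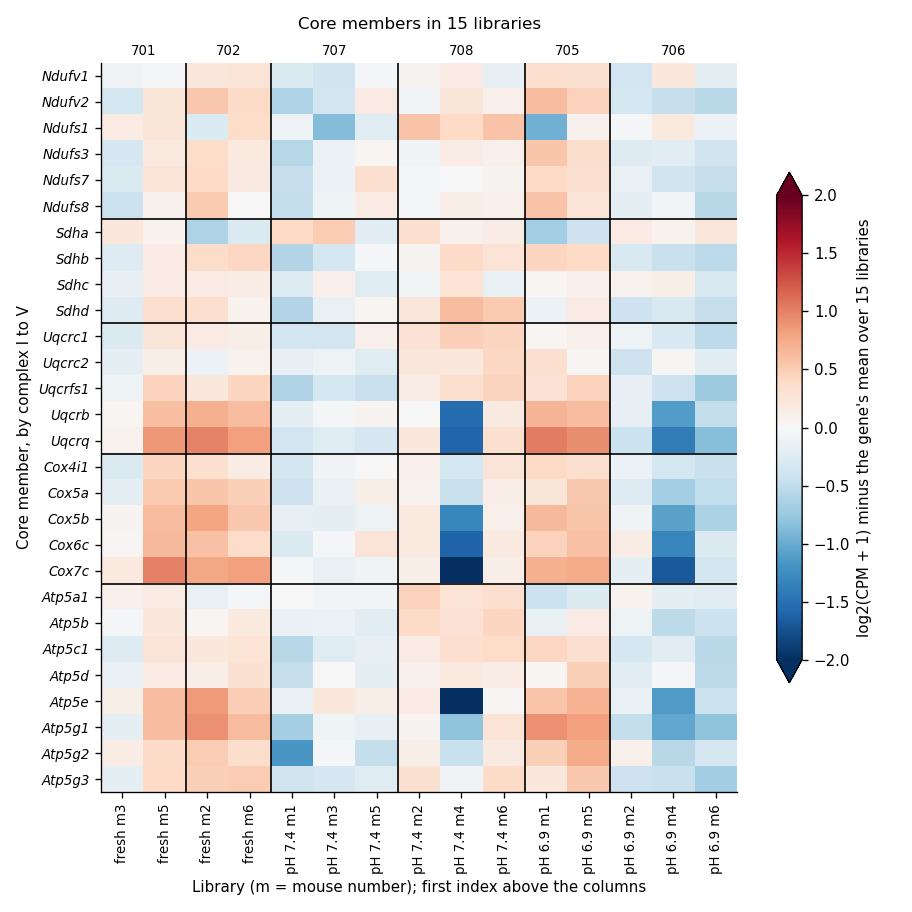
Level of core members (y axis) in the 15 libraries (x axis, grouped by first index), as log2(CPM + 1) minus the gene's mean over those libraries, with the colour scale clipped at 2 in both directions. Most members are above their mean at index 705 and below it at index 706, and Sdha shows the opposite.

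Complex I takes electrons from NADH. In odd mice 5 of its 37 members were higher at pH 6.9 (Ndufa12, Ndufb6, Ndufb9, Ndufb10 and Ndufv2) and 0 lower. In even mice 0 passed, and in the difference 8 passed, all negative. Within pH 6.9, 17 were lower in even mice. Of all genes tested, 5.07% passed as higher in odd mice, 9.09% as negative in the difference and 7.36% as lower within pH 6.9. Ndufa12 encodes an accessory subunit of the matrix arm (chr10:94198720-94221443, plus strand). In odd mice Ndufa12 read 143, 228 and 238 CPM in the pH 7.4 libraries against 473 and 426 in those at pH 6.9. In even mice the pH 7.4 libraries read 245, 132 and 273 and the pH 6.9 ones 165, 139 and 135. Fresh libraries had 244 and 375 (odd) and 432 and 398 (even). The odd pH 6.9 libraries were above all others cultured. The log2 fold change of Ndufa12 was 1.14 (SE 0.27, edgeR adjusted p = 0.0135) in odd mice and -0.59 (SE 0.25, adjusted p = 0.177) in even mice, a difference of -1.73 (SE 0.37, adjusted p = 0.00342).

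Ndufb6, whose promoter window is shown above, encodes a membrane-arm accessory subunit (chr4:40270591-40279421, minus strand). Ndufb6 levels in odd mice were 115, 141 and 169 CPM (pH 7.4) and 281 and 296 (pH 6.9). Levels in even mice were 179, 87.9 and 193 (pH 7.4) and 130.0, 89.8 and 119.9 (pH 6.9), and fresh libraries held 164 and 247 (odd) and 252 and 273 (even). Odd pH 6.9 libraries were again the highest of the cultured ones. The even minus odd difference was -1.48 (SE 0.38, edgeR adjusted p = 0.0113), and within pH 6.9 even mice were lower by a log2 fold change of -1.35 (adjusted p = 0.00444). Ndufv2 encodes an iron-sulfur subunit of the NADH-binding part (chr17:66078638-66101559, minus strand). In odd mice Ndufv2 read 234, 273 and 399 CPM in the pH 7.4 libraries against 548 and 493 in those at pH 6.9. In even mice the pH 7.4 libraries read 344, 424 and 384 and the pH 6.9 ones 280.2, 259 and 246. Fresh libraries had 281 and 423 (odd) and 518 and 468 (even). The pH 6.9 libraries were above all pH 7.4 ones in odd mice and below all of them in even mice. Its log2 fold change was 0.78 in odd mice (edgeR adjusted p = 0.0284, and 0.0673 with the block) and -0.57 in even mice (adjusted p = 0.096), with a difference of -1.35 (adjusted p = 0.00404). Ndufs3 also had a negative difference, -1.02 (adjusted p = 0.0344, and 0.0755 with the block). Catalytic core members that did not pass in the difference include Ndufv1, which binds FMN, -0.69 (adjusted p = 0.0796), Ndufs1 -0.55 (0.346), Ndufs7 -0.77 (0.081) and Ndufs8 -0.86 (0.0646). Ndufs1, an iron-sulfur subunit, had 0.90 for even over odd mice within pH 7.4 (adjusted p = 0.0551). Other members are Ndufa1, Ndufa10, Ndufa11, Ndufa13, Ndufa2, Ndufa3, Ndufa4, Ndufa5, Ndufa6, Ndufa7, Ndufa8, Ndufa9, Ndufb10, Ndufb11, Ndufb2, Ndufb3, Ndufb4, Ndufb4c, Ndufb5, Ndufb7, Ndufb8, Ndufb9, Ndufc1, Ndufc2, Ndufs4, Ndufs5, Ndufs6 and Ndufv3. Their log2 fold changes ran from 0.12 (Ndufa9) to 1.41 (Ndufa5) in odd mice, from -0.65 (Ndufa10) to 0.18 (Ndufa7) in even mice and from -1.86 (Ndufa5) to -0.02 (Ndufv3) for the difference.

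Complex II, succinate dehydrogenase, also works in the citric acid cycle and has its 4 subunits encoded in the nucleus. In odd mice Sdhb was higher and Sdha lower at pH 6.9, and neither call held with the mouse as a block (edgeR adjusted p = 0.063 and 0.0814). Sdhb encodes the iron-sulfur subunit (chr4:140961203-140979193, plus strand). Sdhb levels in odd mice were 221, 262 and 328 CPM (pH 7.4) and 452 and 442 (pH 6.9). Levels in even mice were 347, 439 and 405 (pH 7.4) and 272, 245 and 232 (pH 6.9), and fresh libraries held 279 and 377 (odd) and 433 and 447 (even). Both orders held without overlap, higher at pH 6.9 in odd mice and lower in even mice. On the log2 scale the fold change was 0.72 (SE 0.20, edgeR adjusted p = 0.025) in odd mice and -0.69 (SE 0.18, adjusted p = 0.0277) in even mice, with a difference of -1.41 (SE 0.27, adjusted p = 0.0013).

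Sdha encodes the flavin-binding subunit (chr13:74322254-74350280, minus strand). In odd mice Sdha read 426, 456 and 279.6 CPM in the pH 7.4 libraries against 202 and 242 in those at pH 6.9. In even mice the pH 7.4 libraries read 404, 341 and 356 and the pH 6.9 ones 361, 338 and 376. Fresh libraries had 374 and 340.2 (odd) and 209.9 and 264 (even). Among the 15 libraries, the pH 6.9 libraries of odd mice were the lowest of the cultured ones. The left-out pH 6.9 replicate 3 had 397 CPM of Sdha. The log2 fold change of Sdha in odd mice was -0.80 (SE 0.21, edgeR adjusted p = 0.022, and 0.0814 with the mouse as a block). Within pH 6.9 it was the 1 member higher in even mice, at 0.69 (SE 0.21, adjusted p = 0.0369). That call was lost without each of pH 6.9 replicates 2, 4 and 6, where 0 members were higher. It was also lost with all 18 libraries and with the length trend described below. DESeq2 called 1 complex II member higher there. Sdhd was lower at pH 6.9 in even mice at -0.87 (adjusted p = 0.0124), and its difference was -1.11 (adjusted p = 0.0119). Sdhc was not called in any comparison, with 0.19 in odd mice (adjusted p = 0.598) and -0.08 in even mice (adjusted p = 0.862).

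Complex III oxidizes ubiquinol and reduces cytochrome c. In odd mice 1 of its 8 members was higher at pH 6.9 (Uqcrfs1), in even mice 2 were lower (Uqcrc1 and Uqcrfs1), and in the difference 4 passed, all negative. The matching shares over all genes tested were 5.07%, 4.07% and 9.09%. Uqcrfs1 encodes the Rieske iron-sulfur protein (chr13:30540308-30545362, minus strand). Uqcrfs1 levels in odd mice were 134, 159 and 149 CPM (pH 7.4) and 249 and 281 (pH 6.9). Levels in even mice were 226, 256 and 279 (pH 7.4) and 181, 153 and 124 (pH 6.9), and fresh libraries held 191 and 280.1 (odd) and 235 and 273 (even). At pH 7.4 every even library was above every odd one. The fold changes on the log2 scale were 0.84 (SE 0.21, edgeR adjusted p = 0.0163, and 0.055 with the block) and -0.75 (SE 0.19, adjusted p = 0.0249), and the difference was -1.59 (SE 0.28, adjusted p = 0.000857). Within pH 7.4 even mice were higher at 0.79 (adjusted p = 0.0297).

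Uqcrq, a small subunit near the ubiquinone site (chr11:53427922-53430831, minus strand), had the most negative difference of the members, -2.03 (SE 0.56, edgeR adjusted p = 0.0219). In odd mice Uqcrq read 167, 186 and 173 CPM in the pH 7.4 libraries against 446 and 421 in those at pH 6.9. In even mice the pH 7.4 libraries read 254, 72.7 and 274 and the pH 6.9 ones 164, 82.6 and 121. Fresh libraries had 229.6 and 403 (odd) and 439.7 and 387 (even). Odd pH 6.9 libraries stood above all other cultured ones, while even pH 6.9 and pH 7.4 libraries overlapped. Neither pH comparison passed alone, at 1.30 (adjusted p = 0.0575) and -0.73 (adjusted p = 0.294). Of the core proteins, Uqcrc1 had a difference of -0.99 (adjusted p = 0.0173) and Uqcrc2 of -0.82 (0.032, and 0.0676 with the block), while for Uqcrb it was -0.98 (0.193). The other members are Uqcr10, Uqcr11 and Uqcrh. Their log2 fold changes ran from 0.50 (Uqcrh) to 0.85 (Uqcr11) in odd mice, from -0.40 (Uqcr10) to -0.35 (Uqcr11) in even mice and from -1.20 (Uqcr11) to -0.86 (Uqcrh) for the difference.

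Complex IV hands electrons to oxygen. In odd mice 1 of 13 members was higher at pH 6.9 (Cox4i2), in even mice 0 passed, and in the difference 1 (Cox5a) passed, as negative. Of all genes tested, 5.07% passed as higher in odd mice and 9.09% as negative in the difference, so 1 of 13 is near those shares. Within pH 6.9, 6 were lower in even mice, against 7.36% of genes: Cox4i1, Cox5a, Cox5b, Cox6a1, Cox7b and Cox8a. Cox5a encodes a subunit on the matrix side (chr9:57521274-57532426, plus strand). Cox5a levels in odd mice were 263, 319.6 and 381 CPM (pH 7.4) and 419 and 511 (pH 6.9). Levels in even mice were 370.1, 259 and 386 (pH 7.4) and 294, 219 and 249 (pH 6.9), and fresh libraries held 309 and 505 (odd) and 517 and 489 (even). The pH 6.9 libraries were above all pH 7.4 ones in odd mice, and the sets overlapped in even mice. Its difference was -0.96 (SE 0.32, edgeR adjusted p = 0.041). Cox6c and Cox7c, small membrane subunits, did not pass in the difference, at -0.71 (adjusted p = 0.479) and -1.14 (adjusted p = 0.311). Nor did Cox4i1, at -0.84 (adjusted p = 0.0557), or Cox5b, at -1.11 (adjusted p = 0.112).

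Cox4i2 (chr2:152754173-152765037, plus strand) was at a low level. In odd mice Cox4i2 read 4.29, 11.8 and 10.3 CPM in the pH 7.4 libraries against 40.7 and 46.89 in those at pH 6.9. In even mice the pH 7.4 libraries read 11.3, 13.5 and 3.17 and the pH 6.9 ones 23.2, 10.2 and 9.23. Fresh libraries had 10.7 and 3.17 (odd) and 35.1 and 38 (even). The odd libraries kept at pH 6.9 were higher than every other cultured library in the fit. The left-out pH 6.9 replicate 3 had 14.9 CPM of Cox4i2, below pH 6.9 replicate 2. Its log2 fold change was 2.28 (SE 0.59, edgeR adjusted p = 0.0204) in odd mice and 0.56 (SE 0.55, adjusted p = 0.618) in even mice. Fresh even mice had more than fresh odd mice in both libraries of each. Cox6b2 had log2 fold changes of -0.48 in odd and 1.36 in even mice, with adjusted p = 0.677 and 0.165. The other members are Cox6a1, Cox6b1, Cox7a2, Cox7a2l, Cox7b and Cox8a. Their log2 fold changes ran from 0.20 (Cox7a2l) to 1.02 (Cox8a) in odd mice, from -0.56 (Cox7b) to -0.08 (Cox7a2l) in even mice and from -1.48 (Cox8a) to -0.28 (Cox7a2l) for the difference.

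Complex V makes ATP. In odd mice 5 of its 17 members were higher at pH 6.9 (Atp5c1, Atp5g1, Atp5g2, Atp5g3 and Atp5o), in even mice 3 were lower (Atp5b, Atp5c1 and Atp5g3), and in the difference 8 passed, all negative. The matching shares over all genes tested were 5.07%, 4.07% and 9.09%. Atp5g1, Atp5g2 and Atp5g3 encode the same ring protein after its import signal is removed, and all 3 passed in the difference, as negative. Of the 3, Atp5g1 (chr11:96068852-96075670, minus strand) was the highest per kb. Atp5g1 levels in odd mice were 290.0, 436 and 411 CPM (pH 7.4) and 872 and 818 (pH 6.9). Levels in even mice were 481, 263 and 559 (pH 7.4) and 334, 224 and 265 (pH 6.9), and fresh libraries held 407 and 709 (odd) and 876 and 714 (even). Odd pH 6.9 libraries were the highest of the cultured ones, and the even sets overlapped. It had a difference of -1.83 (SE 0.39, edgeR adjusted p = 0.00346). For Atp5g3 the difference was -1.46 (adjusted p = 0.00118) and for Atp5g2 -1.33 (adjusted p = 0.0329).

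Atp5c1 encodes the gamma subunit that turns in the head (chr2:10056016-10080510, minus strand). In odd mice Atp5c1 read 408, 506 and 533 CPM in the pH 7.4 libraries against 794 and 753 in those at pH 6.9. In even mice the pH 7.4 libraries read 668, 751 and 772 and the pH 6.9 ones 468, 511 and 410.2. Fresh libraries had 498 and 717 (odd) and 688 and 720.2 (even). Again the order of the pH sets was opposite in odd and even mice, without overlap. The log2 fold change was 0.68 (edgeR adjusted p = 0.0257, and 0.0722 with the block) in odd mice and -0.67 (adjusted p = 0.0227) in even mice, with a difference of -1.35 (SE 0.25, adjusted p = 0.00118). Atp5o, the OSCP subunit that ties head to stalk, had a difference of -1.28 (adjusted p = 0.00296). Atp5b was lower at pH 6.9 in even mice, at -0.73 (SE 0.15, adjusted p = 0.00824), and was 0.16 in odd mice (adjusted p = 0.584). The alpha subunit gene Atp5a1 was not called, with -0.31 in odd and -0.48 in even mice (adjusted p = 0.24 and 0.0581). The delta subunit gene Atp5d had a difference of -0.88 (adjusted p = 0.0333) and the epsilon gene Atp5e -0.76 (0.432). The other members are Atp5h, Atp5j, Atp5j2, Atp5k, Atp5l, Atp5md, Atp5mpl and Atp5pb. Their log2 fold changes ran from 0.33 (Atp5h) to 1.41 (Atp5k) in odd mice, from -0.53 (Atp5mpl) to -0.01 (Atp5h) in even mice and from -1.79 (Atp5k) to -0.34 (Atp5h) for the difference.

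**Figure D4:**
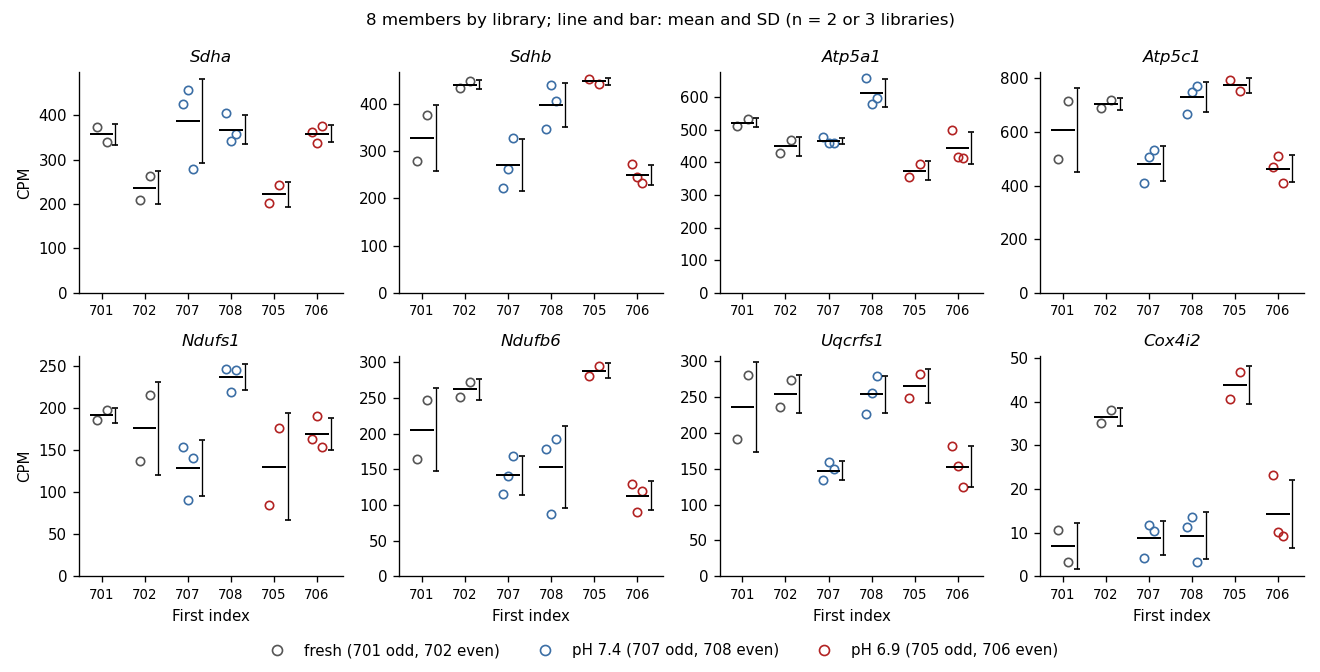
CPM (y axis) of 8 members in each of the 15 libraries, by first index (x axis), with lines and bars for the mean and SD of the 2 or 3 libraries of a set. Sdhb, Atp5c1 and Uqcrfs1 are higher at index 705 than at 707 and lower at 706 than at 708, and Sdha is lower at 705 than at 707.

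Members are short transcripts, with a median of 704 bases (315 to 3171) against 2755 for the other tested genes, and gene changes varied with length. The 298 other genes of at most 704 bases had a median log2 fold change of 0.48 in odd mice (33 up, 5 down) and -0.06 in even mice, where the 10095 longer genes had -0.10 and 0.05. Within pH 6.9, the short other genes had a median of -0.61 (72 down, 7 up) and the long ones 0.10. For the difference the short ones had -0.58 and the long ones 0.17. The members of at most 704 bases had a median of 0.69 in odd mice and the longer members 0.51, against 0.48 and -0.10 in other genes of those lengths.

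A trend of change with length, fitted over all genes in each library with members included, was then entered in the fit, an alternative added after seeing the data. It called 5 members up and 0 down in odd mice, 10 down and 0 up in even mice, and 15 down and 1 up in the difference. Within pH 6.9 it called 10 down and 0 up. The shares of genes called with it, in either direction, were 9.49%, 8.16%, 17.8% and 12.6%. Of 79 members, 5 is below the share in odd mice and 10 is above it in even mice. The calls in the difference and within pH 6.9 are near their shares. Of the calls without the trend, 4 of 14, 7 of 7 and 15 of 23 were called with it, and 9 of 33 within pH 6.9. The 1 up was Cox6b2. Sdha in odd mice was then -0.50 (edgeR adjusted p = 0.0704) and Sdhb 0.43 (adjusted p = 0.0706). The members' median was 0.21 in odd mice, -0.25 in even mice and -0.45 in the difference.

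**Figure D5:**
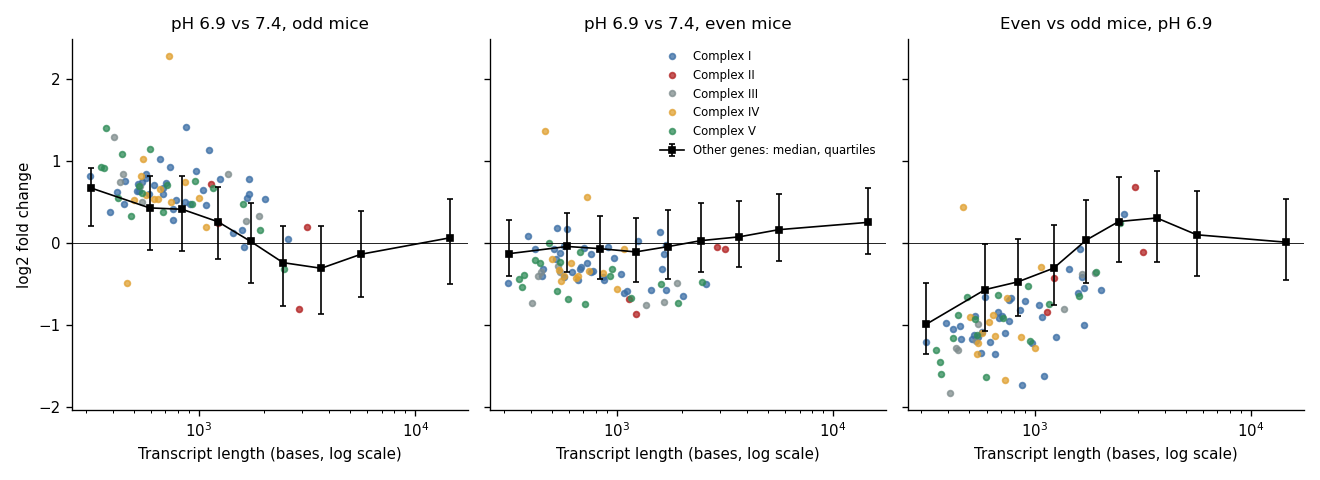
log2 fold change (y axis) against transcript length on a log axis (x axis) for the members, coloured by complex, and for the other genes as medians with quartiles in 9 length bins, in odd mice, in even mice and between even and odd mice at pH 6.9. Short other genes lie above 0 in odd mice and below 0 between even and odd mice at pH 6.9, as the members do.

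Other genes of the same pathway were read from lists chosen with the pathway in mind. Among 17 electron carriers and their enzymes, 2 were higher and 1 lower at pH 6.9 in odd mice, and 1 higher and 3 lower in even mice. Over all genes tested, 5.07% were higher and 6.01% lower in odd mice, and 2.67% and 4.07% in even mice. Cytochrome c, Cycs, was 1.16 in odd mice (edgeR adjusted p = 0.00643) and -0.99 in even mice (adjusted p = 0.012). Coq7, an enzyme of ubiquinone synthesis, was 0.98 (adjusted p = 0.0365) and -1.28 (0.00784). Etfdh, which passes electrons from fatty acid oxidation to ubiquinone, went the opposite way in odd mice at -0.88 (0.0163).

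Of 4 subunit genes listed for names outside the rule (one of them, Atp5md, matches it and is a member), 1 was higher in odd mice and 1 lower in even mice: Ndufab1, the acyl carrier protein of complex I, at 0.91 (edgeR adjusted p = 0.0188), and Cyc1, the cytochrome of complex III, at -1.08 (adjusted p = 0.00331). Of the 13 listed carriers and channels, 4 were higher and 1 lower in odd mice and 1 higher and 3 lower in even mice. Shares over all genes were 5.07% higher and 6.01% lower in odd mice, and 2.67% and 4.07% in even mice. Slc25a5, an ADP/ATP carrier, was 0.85 (adjusted p = 0.0108) and -0.92 (0.00539). Ucp2, a mitochondrial carrier named as an uncoupling protein, moved against the members, at -0.94 in odd mice (adjusted p = 0.0097) and 1.29 in even mice (0.000883).

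Assembly factors are needed to build the complexes but are not part of them. In odd mice 2 of 15 complex I factors were higher at pH 6.9 (Ndufaf2 at 1.06 and Ndufaf4 at 0.92), 0 of 4 complex II, 0 of 6 complex III, 1 of 23 tested complex IV (Sco2, a copper chaperone, at 1.58, edgeR adjusted p = 0.0142) and 0 of 3 complex V factors. In even mice 1 complex I factor (Ndufaf6, at -1.07) and 1 complex III factor (Bcs1l, which inserts the Rieske protein, adjusted p = 0.0279) were lower. Over all genes tested, 5.07% were higher in odd mice and 4.07% lower in even mice. Of 11 tested regulators of respiratory genes, 0 were called in either set of mice.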

How the data were processed

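The authors deposited 1 table of estimated counts per gene for 18 libraries, holding whole numbers; kallisto and the mm10 build are named per the submitters' processing notes, with no version stated. Libraries were made with SMART-Seq v4 and Nextera XT, per the labels' protocols, a method that does not mark strand and has no molecular identifiers. RNA was measured in fresh, pH 7.4 and pH 6.9 LT-HSCs (n = 6 each). Depth was 1640817 to 7508120 counts, and 6311 in fresh replicate 1, where a count of 0 allows up to 3 counts; counting error only is covered.

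Counts were tested with edgeR 4.0.16 (R 4.3.3, limma 3.58.1; TMM scaling, filterByExpr by group, robust quasi-likelihood fit), with Benjamini-Hochberg adjustment over all genes tested and a threshold of 0.05. The standard error is the log2 fold change divided by the square root of F. The fit by group held 18 libraries and 10104 genes. The fit by 6 sets of group and first index held 15 libraries and 10659 genes, leaving out libraries under 100000 counts or under 10000 genes. CPM values use the 18-library TMM scaling, whose factors of 0.610 for fresh replicate 4 and 0.638 for pH 6.9 replicate 3 raise the CPM of those libraries. Gene positions and transcript lengths (shortest principal coding transcript) come from GENCODE M21 (GRCm38, the build named mm10).

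The replicate number is the mouse, from the design text's 6 individual mice; over 12 same-numbered pairs, deviations from set means correlated at -0.095 to 0.156, with 4 over 0.1. Members and lists were chosen with earlier results of these data known. Named were core subunits fixed by role, tissue forms, up to 2 members per complex and direction with the smallest p, the extremes per kb, members called against their complex, and up to 3 called genes per list. The values of 1 member on its own are not reported here, and counts over the members include it. The code was tested on simulated data. DESeq2 1.42.0, all 18 libraries, no filter and a stricter one, the replicate block and leaving out each library were tried, and a length trend was added after seeing the data.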

Additional observations from a re-analysis of the deposited data

Results flagged for a closer look

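Chance alone marks about 1 in 20 groups of 6 libraries, and 23 of the 102 groups checked (core members and complex shares, in each of the 3 groups) held a library whose gap to the nearest other was too wide for 6 values (Dixon's test, 95% level). All 23 were in 4 libraries. The groups share libraries and are not independent, so 23 of 102 cannot be set against 1 in 20. Fresh replicate 1, with 6311 counts, was lowest for Ndufv1 (80.16 CPM) and Atp5a1 (240.5), and Atp5g2 was at 0 there. Fresh replicate 4 was highest among fresh libraries for Ndufv2 (1276 CPM), Ndufs3 (514.4), Ndufs7 (872.8), Ndufs8 (972.3), Sdhb (1603), Atp5c1 (2134) and Atp5g3 (1127). pH 6.9 replicate 3 was highest in its group for Ndufv2 (1185 CPM), Ndufs1 (398.3), Ndufs3 (393), Ndufs7 (731.6), Sdhb (1302), Uqcrc2 (765.8), Cox5a (1033) and Atp5c1 (2145). Those 2 libraries also had the lowest scaling factors. pH 7.4 replicate 4 was lowest in its group for Uqcrb (90.21 CPM), Cox5b (96.3), Cox7c (66.23) and Atp5e (32.54), and complex IV took 0.1695% of its counts.

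The pH effect differed between even and odd mice for 23 members by edgeR's test of the even effect minus the odd effect. These log2 differences were -2.03 for Uqcrq, -1.83 for Atp5g1, -1.73 for Ndufa12, -1.59 for Uqcrfs1, -1.48 for Ndufb6, -1.46 for Atp5g3, -1.41 for Sdhb, -1.35 for Ndufv2 and -1.35 for Atp5c1. They were -1.33 for Atp5g2, -1.28 for Atp5o, -1.19 for Ndufa10, -1.16 for Ndufb10, -1.11 for Sdhd, -1.08 for Ndufb5 and -1.02 for Ndufs3. The other 7 were -0.99 for Uqcrc1, -0.97 for Atp5pb, -0.96 for Cox5a, -0.91 for Ndufb8, -0.89 for Atp5b, -0.88 for Atp5d and -0.82 for Uqcrc2.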

How the results depend on the processing

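No called member changed sign under any alternative tried. The median over members changed sign within pH 7.4 without pH 7.4 replicates 1, 2 and 6, for pH 6.9 against fresh over all mice without fresh replicate 4, and in odd mice without fresh replicate 3 and with the length trend. Counts are of members called. With all 18 libraries the counts were 0 in odd mice, 0 in even mice, 0 for the difference, 3 within pH 6.9, 0 within pH 7.4 and 1 for pH 6.9 against fresh in even mice. With no filter on low counts they were 35 in odd mice, 46 for the difference, 61 within pH 6.9, 4 within pH 7.4, 1 within fresh, 53 and 1 for pH 6.9 against fresh in even and odd mice, and 32 and 4 for pH 7.4 against fresh in even and odd mice. DESeq2 gave 8 within pH 7.4, and 42 and 1 for pH 6.9 against fresh in even and odd mice. Over all genes DESeq2 called 783, 1589 and 264 there, where edgeR called 355, 1164 and 64. With the length trend they were 5 in odd mice, 10 within pH 6.9, 7 within pH 7.4 and 8 for pH 6.9 against fresh in even mice. The matching shares of genes called with the trend, in either direction, were 9.49%, 12.6%, 4.69% and 9.97%. Of 79 members, 5 is below its share, 10 and 8 are near theirs and 7 is above. Leaving out single libraries gave 0 to 18 in odd mice, 0 to 6 in even mice, 11 to 50 for the difference, 8 to 37 within pH 6.9, 0 to 4 within pH 7.4 and 4 to 30 for pH 6.9 against fresh in even mice. With the replicate block (paired by mouse) they were 12 in odd mice, 8 in even mice, 28 for the difference, 29 for pH 6.9 against fresh in even mice and 0 in the others, and it changed no count by over 1.5 times; of the calls without it, 6 of 14 in odd mice, 7 of 7 in even mice, 19 of 23 for the difference and 19 of 27 against fresh passed with it. The block could not be fitted to comparisons of even with odd mice. For no filter, all 18 libraries, the block and left-out libraries, calls over all genes were not counted. Those member counts therefore have no share of genes beside them. The causes were not tested. Depth limits fresh replicate 1.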

Other observations

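Regulators of respiratory genes were mostly not called. Within pH 6.9, even mice had less Pprc1, a coactivator related to PGC-1 (log2 fold change -1.78, edgeR adjusted p = 0.00679), and less Tfam, which packages mitochondrial DNA (-0.70, adjusted p = 0.0394). Pprc1 was at 71.1 ± 6.3 CPM (SD, n = 2) in odd mice and 20.7 ± 10.9 CPM (SD, n = 3) in even mice. Tfam was at 115 ± 20.6 CPM (SD, n = 2) and 70.6 ± 10.7 CPM (SD, n = 3). These 2 were the only ones of the 11 tested regulators called within pH 6.9, where 7.36% of all genes were lower in even mice. The even minus odd difference of Pprc1 was -1.67 (edgeR adjusted p = 0.0377). In even mice both were lower at pH 6.9 than in fresh cells, Pprc1 at -1.44 (adjusted p = 0.0262) and Tfam at -0.79 (0.026), against 6.15% of genes.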
